A study of Caenorhabditis elegans with 5 samples.

Results

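The 7 genes described here, mks-1, mksr-1, mksr-2, mks-3, mks-5, nphp-1 and nphp-4, encode proteins of the ciliary transition zone of Caenorhabditis elegans. They were taken by name from a table of 42048 genes, and all 7 were found in it. They were chosen by name, with their normalised counts and fold changes in the comparison below already known, so their own differences are given as a description. Calls on them are counted only beside the share of all genes called, and support nothing. Messenger RNA of sorted neurons was sequenced in 5 libraries from adults on day 1, grown at 16 °C. 3 libraries came from thoc-5(wy822) mutants and 2 from wildtype animals. Animals of both genotypes carried edIs6, known as an integrated unc-119 reporter fused to GFP, and neurons were sorted by fluorescence after dissociation. The reporter marks neurons in general, so the ciliated ones are only some of the sorted cells. THOC-5 belongs to the THO complex, which packages new messenger RNA for export from the nucleus, and the comparison asks which neuronal transcripts differ in abundance in its mutant.

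In the worm only certain sensory neurons bear cilia, at the tips of their dendrites. The transition zone lies at the base of each cilium, where Y-shaped links join the microtubules to the membrane and a gate controls which proteins enter. Its proteins work in groups known as the MKS module and the NPHP module, which overlap in function, and MKS-5 is needed to anchor both. The RFX transcription factor DAF-19 drives many ciliary genes through X-box promoter motifs. The human counterparts of these genes are known for ciliopathies such as Meckel syndrome and nephronophthisis.

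Counted reads came to 6.80 M to 8.69 M in the mutant libraries and 10.2 M to 10.3 M in the wildtype libraries. thoc-5, listed as Y32H12A.2, had normalised counts of 78.3, 34.6 and 12.7 in mutant replicates 1 to 3, against 154 and 122.2 in wildtype replicates 1 and 2, without passing the test (limma, log2 fold change -2.03, adjusted p = 0.148). The share of reads on 22 pan-neuronal genes was 1.96%, 1.27% and 2.12% in mutant replicates 1 to 3, against 0.489% and 0.0591% in wildtype replicates 1 and 2. Of 15 markers of ciliated sensory neurons, 14 or 15 had a read in every library but wildtype replicate 2, which had reads on 10. In that library tax-4, osm-9, odr-10, odr-3 and pkd-2 were at 0. Wildtype libraries held larger shares of muscle, intestinal and germline markers and of adult collagen RNA. The 10 epidermal genes took 0.275%, 1.22% and 0.231% of mutant reads against 9.88% and 7.40% of wildtype reads, mostly on the collagen genes col-140, col-19, col-119 and col-93, and only these 4 were lower in every mutant library. Of the other epidermal genes rol-6 was higher in every mutant library (limma, log2 fold change 2.01, adjusted p = 0.0619). The 10 muscle genes, all lower in every mutant library, took 1.16% to 1.51% of mutant reads against 3.21% and 6.15% of wildtype reads. Markers of intestine (0.0451% to 0.198% against 0.764% and 0.625%) and germline (0.00706% to 0.0176% against 0.116% and 0.0506%) moved the same way. All 10 muscle markers had reads in every library, while in some mutant libraries dpy-7, bli-1, ges-1, elt-2, oma-1, spn-4, mex-5 or htp-3 was at 0. Coelomocyte genes (0.153% to 0.266% against 0.0312% and 0.00432%) were higher in the mutant, and 8 glial genes took 0.0286% to 0.0568% against 0.0189% and 0.0115%. Of the glial genes delm-1 had no read, daf-6 was at 0 in mutant replicate 1, and fig-1 and hlh-17 were at 0 in wildtype replicate 2. The part of these differences in the results below was not tested. In sorted bulk samples fewer ciliated neurons and less RNA per neuron cannot be told apart.

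Reads on the transition zone genes were nearly absent in wildtype replicate 2, few in wildtype replicate 1 and more numerous in each mutant library. Together they took 2989, 5639 and 5734 reads in mutant replicates 1 to 3, against 694 and 25 reads in wildtype replicates 1 and 2. As a share of all reads this was 0.0406% (exact 95% interval 0.0392 to 0.0421), 0.0830% (0.0808 to 0.0852) and 0.0660% (0.0643 to 0.0677) in the mutant libraries, against 0.00673% (0.00624 to 0.00725) and 0.000244% (0.000158 to 0.000361) in the wildtype libraries. Such intervals, here and below, cover counting error only, since the reads carry no molecular identifiers.

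**Figure D1:**
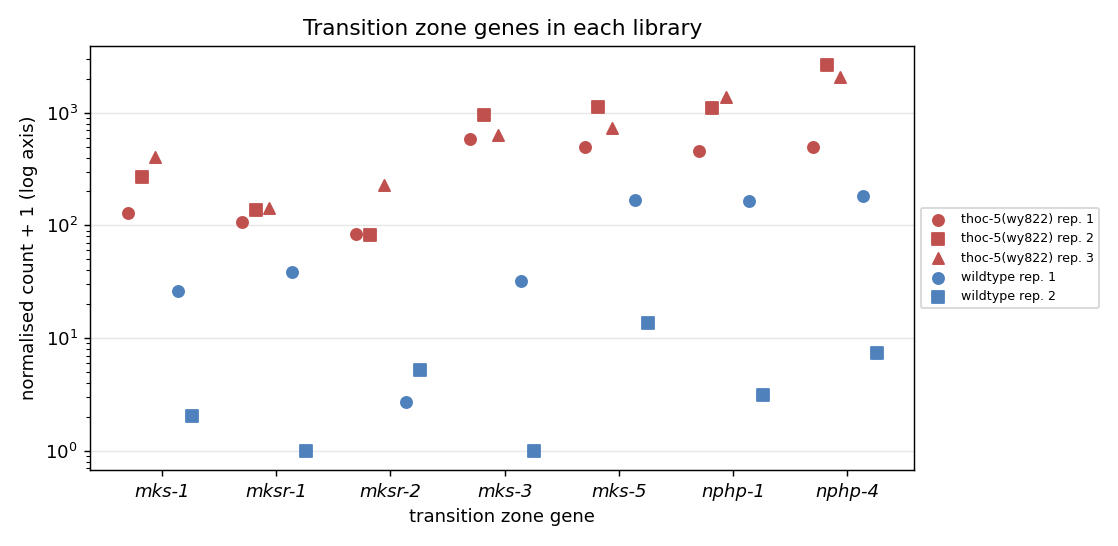
Normalised count plus 1 (log axis) of each transition zone gene in each library, with mutant libraries in red and wildtype libraries in blue; each point is 1 library. For each of the 7 genes the 3 mutant points lie above both wildtype points, and mks-3 and mksr-1 have no read in wildtype replicate 2.

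The MKS module is represented by 4 genes. mks-3 encodes the worm meckelin, a membrane protein with a large extracellular part (WBGene00018042, on the minus strand of chromosome II in WBcel235, bases 7580144 to 7583655). Its normalised counts were 580.4, 944 and 628 in mutant replicates 1 to 3, against 31.4 and 0 in wildtype replicates 1 and 2. The lowest mutant library was 18.5 times the highest wildtype library, and 0 reads allow up to 3, a normalised count of 3.19. mks-3 had the largest log2 fold change of the 7 genes, 6.95 (SE 1.38), taken as mutant minus wildtype on the scale of log2(normalised count + 1). Because that is a difference of mean logs, the absence of reads in wildtype replicate 2 enlarges it, and without that library it was 4.44.

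The other 3 MKS genes encode proteins with a B9 domain, a fold typical of transition zone proteins. mks-1 (WBGene00020100, plus strand of chromosome III in WBcel235, bases 3186280 to 3191307) had normalised counts of 128, 267 and 405 in mutant replicates 1 to 3, against 25.3 and 1.06 in wildtype replicates 1 and 2. Its log2 fold change was 5.03 (SE 1.19), and the groups did not overlap. mksr-2 (WBGene00021416, minus strand of chromosome IV in WBcel235, bases 2304292 to 2306547) had 83.0, 81.5 and 225 in the mutant libraries, against 1.74 and 4.25 in the wildtype libraries. It was the one member that wildtype replicate 1 held at a lower level than wildtype replicate 2, on 2 and 4 reads. Its log2 fold change of 4.94 (SE 0.91) had the smallest standard error of the 7 and became 5.40 without wildtype replicate 2. mksr-1 (WBGene00019364, minus strand of chromosome X in WBcel235, bases 1066606 to 1069129) had 106.5, 137 and 140.4 in the mutant libraries, the narrowest mutant spread among the 7, against 37.5 and 0 in the wildtype libraries. It differed least by the ratio of means, 6.83, and its log2 fold change of 4.37 (SE 1.52) was 1.73 without wildtype replicate 2.

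The NPHP module is represented by nphp-1 and nphp-4, whose products, the worm nephrocystins, bind each other. nphp-4 (WBGene00011261, minus strand of chromosome V in WBcel235, bases 11831197 to 11843728) had the widest spread among mutant libraries, with normalised counts of 493, 2635 and 2089 in mutant replicates 1 to 3, against 181 and 6.37 in wildtype replicates 1 and 2. Mutant replicate 2 was thus 5.35 times mutant replicate 1. The lowest mutant library exceeded the highest wildtype library 2.73 times, the smallest such gap of the 7 genes. nphp-1 (WBGene00010898, minus strand of chromosome II in WBcel235, bases 10648893 to 10652256) had 458, 1103 and 1374 in the mutant libraries, against 163 and 2.12 in the wildtype libraries. The log2 fold changes were 5.25 (SE 1.40) for nphp-4 and 5.29 (SE 1.57) for nphp-1. Without wildtype replicate 2 they were 2.94 and 2.43.

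mks-5, the worm counterpart of human RPGRIP1L, encodes the scaffold protein on which both modules depend (WBGene00007490, plus strand of chromosome II in WBcel235, bases 10720231 to 10729329). It had normalised counts of 492, 1126 and 728 in mutant replicates 1 to 3, against 166 and 12.7 in wildtype replicates 1 and 2. Of the 7 genes it alone reached a normalised count of 10 in both wildtype libraries. Its log2 fold change was the smallest, 3.95 (SE 1.04), and 2.15 without wildtype replicate 2.

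All 7 genes were higher in every mutant library than in both wildtype libraries, as were 30.1% of the 13787 genes tested, and all 7 by at least 2 times, as were 17.8%. limma with Benjamini-Hochberg adjustment called 3 of the 7 higher (mks-1, mksr-2 and mks-3) at an adjusted p below 0.05, against 6.97% of all genes called higher and 5.92% called lower. Since the genes were chosen with this contrast known, nothing is read from these counts. The filter for testing, which asked for at least 2 libraries with normalised counts of 10 or above, was met by all 7 through the mutant libraries and would have been met through the wildtype libraries by mks-5 alone. Across all genes 961 were called higher and 816 lower. When libraries were instead scaled to the 22 pan-neuronal genes, 204 were called higher and 6453 lower. The median log2 fold change was 5.03 for the 7 genes and 0.13 for all genes tested. Under pan-neuronal scaling these medians were 2.41 and -2.81, and the 7 genes ranged from 0.96 for mks-5 to 5.40 for mks-3. The authors' deposited table orders them otherwise, from a log2 fold change of 2.37 (SE 1.23) for mksr-1 to 5.001 (SE 0.95) for mksr-2. Of the 7, the authors' deposited table gives all but mksr-1 an adjusted p below 0.05, and of the genes with one it calls 13.4% higher and 10.7% lower. DESeq2 on the recovered counts called 6 of the 7 higher, where it called 15.4% of genes higher and 11.6% lower, and edgeR on the same counts called 0 genes, members included, with 3869 genes at an unadjusted p below 0.05.

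Relative to exon length, the NPHP genes had the highest mutant averages, though not the highest levels in every library. In normalised counts per kilobase of annotated exon, mutant libraries averaged 461 ± 222 for nphp-1, 424 ± 271 for nphp-4, 246 ± 67.8 for mks-3, 191 ± 78.3 for mks-5, 189 ± 119.8 for mksr-2, 141 ± 73.2 for mks-1 and 132 ± 19.3 for mksr-1 (SD, n = 3 each). No neighbours in that order differed by more than the larger SD of the pair. Only the step from mks-3 to mks-5 had the same direction in all 3 mutant libraries. nphp-1 was highest per kilobase in mutant replicates 1 and 3 and in wildtype replicate 1, and nphp-4 in mutant replicate 2. In mutant replicate 1 nphp-4, at 120.11 per kilobase, lay below mks-3 at 199 and mksr-2 at 120.5, and in wildtype replicate 2 mksr-2 and mks-5 lay above both NPHP genes. Module sums cover only the 2 NPHP and 4 MKS genes among the 7, without the further MKS genes named below. Summed in this way, NPHP levels per kilobase were 0.676, 1.60 and 1.28 times the MKS levels in mutant replicates 1 to 3. In wildtype replicates 1 and 2 they were 1.85 and 0.380 times the MKS levels. The mutant values therefore lay between the wildtype values, the lower of which rests on 8 NPHP and 5 MKS reads.

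The make-up of the transition zone reads, which no scaling between libraries can alter, showed where members differed from one another. mks-3 held 24.8%, 15.003% and 11.2% of the reads of the 7 genes in mutant replicates 1 to 3, against 5.19% (exact 95% interval 3.66 to 7.11) in wildtype replicate 1. mksr-2 held 3.55%, 1.29% and 4.03% in the mutant libraries, against 0.288% (0.0349 to 1.04) in wildtype replicate 1. In wildtype replicate 2 the 7 genes had 25 reads in all. mksr-2 held 16% of them (4.54 to 36.1), above its share in each mutant library, so its mutant shares lay between the wildtype shares. mks-3 had none of them (interval up to 13.7%), a limit above its share in mutant replicate 3. In the other direction, mks-5 held 21.01%, 17.9% and 13.03% in the mutant libraries against 27.4% (24.1 to 30.9) in wildtype replicate 1, and mksr-1 4.55%, 2.18% and 2.51% against 6.20% (4.52 to 8.26). For nphp-4 the shares were 21.04%, 41.9% and 37.4% in mutant replicates 1 to 3, on both sides of the 29.8% of wildtype replicate 1. In wildtype replicate 2 mks-5 held 48% (27.8 to 68.7), so its share was higher in both wildtype libraries than in any mutant library, and mksr-1 had no read.

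**Figure D2:**
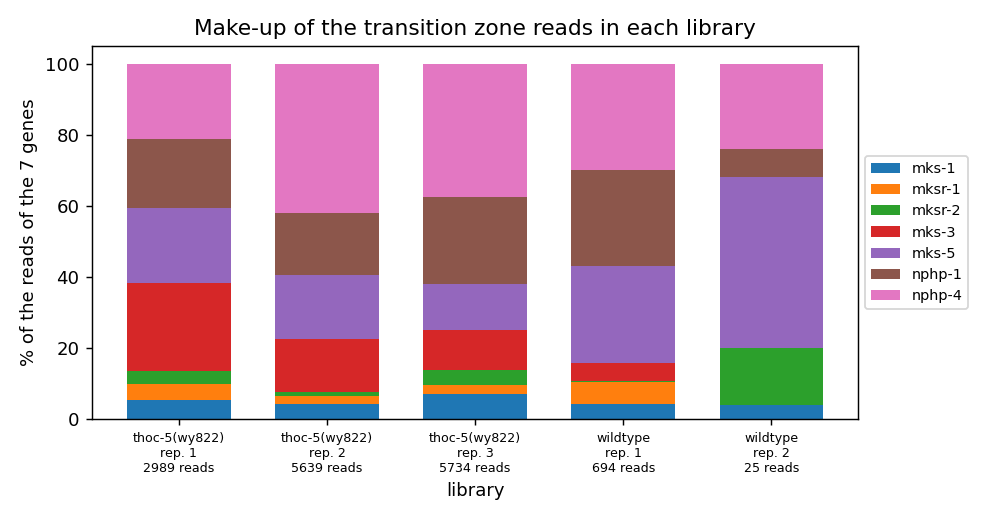
Percentage of the reads of the 7 transition zone genes that fell on each gene, by library, with the read total under each bar; mutant libraries are on the left. mks-3 takes 24.8%, 15.003% and 11.2% in the mutant libraries and 5.19% in wildtype replicate 1, while the bar of wildtype replicate 2 rests on 25 reads.

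Set against the genes that build the rest of the cilium, the transition zone genes held similar shares in all libraries but wildtype replicate 2. Of the reads on the 7 genes and on a list of 42 genes, most of them of intraflagellar transport and the BBSome, which carry cargo along the cilium, the 7 took 8.27%, 9.24% and 9.02% in mutant replicates 1 to 3 and 8.62% (exact 95% interval 8.02 to 9.26) in wildtype replicate 1. In wildtype replicate 2 they took 0.7499% (0.486 to 1.11), 25 of 3334 reads. That library still reached a normalised count of 10 for 23 of the 42 transport and BBSome genes, but for 1 of the 7 transition zone genes. Its median log2 level was 1.64 for the transition zone genes and 4.15 for the transport and BBSome genes. The low level was not particular to the 7 genes. That median was also 1.64 for the 15 ciliated neuron markers and for a list, described below, of 15 further transition zone and ciliary base genes. Of those further genes 4 reached a normalised count of 10 in wildtype replicate 2, and 4 had no read. The list also holds dyf-7, which encodes a matrix protein that anchors dendrite tips, and che-10, which encodes the rootlet protein rootletin, and these had 555 and 523 reads in wildtype replicate 2. Without this pair, left out after their values were seen, the 7 genes took 8.80%, 9.43% and 9.11% in mutant replicates 1 to 3, against 9.62% (8.95 to 10.3) and 1.11% (0.718 to 1.63) in wildtype replicates 1 and 2. Transport genes with the most reads in wildtype replicate 2 were daf-10 with 395 and osm-1 with 300.

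Against pan-neuronal genes the proportion was higher in the mutant. The 7 genes took 2.04%, 6.12% and 3.01% of the reads on them and the pan-neuronal genes in mutant replicates 1 to 3, against 1.36% (1.26 to 1.46) and 0.412% (0.267 to 0.608) in wildtype replicates 1 and 2. Groups did not overlap in this share, but the genes were chosen with this contrast known, so nothing is read from it. Coelomocyte genes also held more reads relative to pan-neuronal genes in every mutant library than in both wildtype libraries. Their reads were 11261, 18073 and 20407 in mutant replicates 1 to 3, beside 143835, 86489 and 184487 pan-neuronal reads. In wildtype replicates 1 and 2 they were 3217 and 442, beside 50447 and 6040. Of the pan-neuronal reads, egl-21 and egl-3, which encode enzymes that process neuropeptides, held 57.9%, 62.4% and 74.5% in the mutant libraries, against 73.6% and 35.9% in the wildtype libraries. unc-31 was at 0 in wildtype replicate 2. Transport and BBSome genes, measured in the same way, took 18.7%, 39.04% and 23.9% in the mutant libraries, against 12.7% and 35.4% in the wildtype libraries, and there the groups overlapped. Mutant replicate 2 had the highest share of ciliary reads relative to pan-neuronal reads for both lists.

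**Figure D3:**
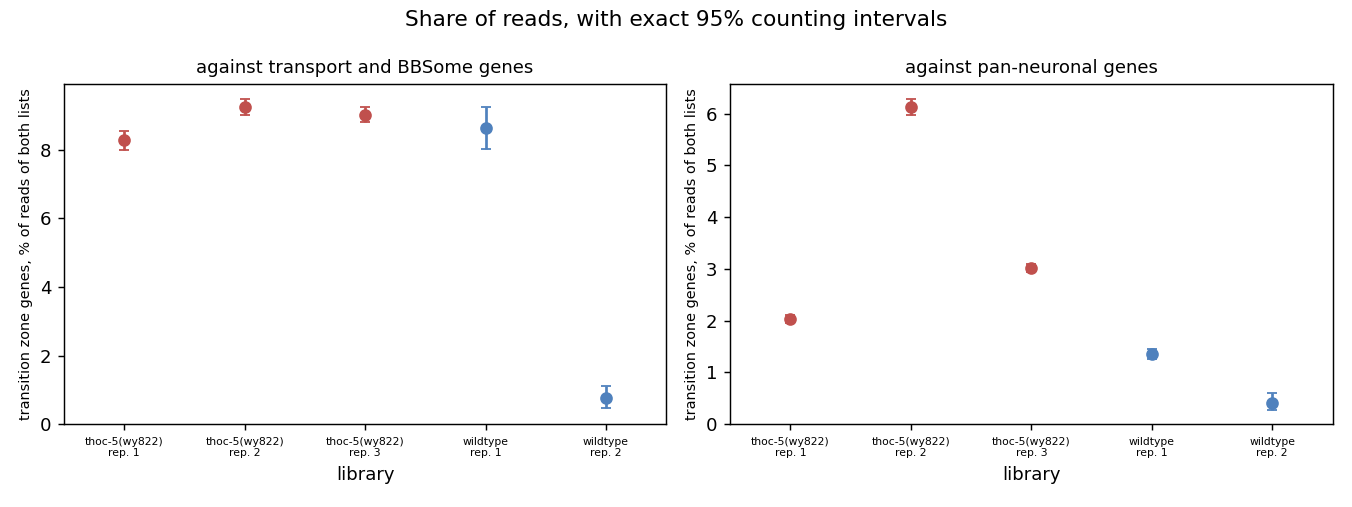
Share of reads taken by the 7 transition zone genes among their own reads plus those of transport and BBSome genes (left) or pan-neuronal genes (right), by library, with exact 95% counting intervals. On the left the mutant libraries lie at 8.27% to 9.24% beside 8.62% in wildtype replicate 1 and 0.7499% in wildtype replicate 2, and on the right all 3 mutant libraries lie above both wildtype libraries.

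Among 15 further genes of the transition zone and ciliary base, 7 rose in the mutant libraries, none fell, and 8 did not pass (limma, adjusted p below 0.05). Of all genes tested, 6.97% rose and 5.92% fell. The median log2 fold change of the 15 was 4.36. Of them, 14 were higher in every mutant library than in both wildtype libraries, as were 30.1% of all genes tested. mks-2, which encodes a small membrane protein of the MKS module, had normalised counts of 119.8, 209.8 and 392 in mutant replicates 1 to 3, against 13.95 and 1.06 in wildtype replicates 1 and 2 (log2 fold change 5.28, SE 1.07, adjusted p = 0.0401). cep-290, listed as Y47G6A.17 and encoding a core scaffold of the transition zone, had 389, 1068 and 334 in the mutant libraries, against 67.2 and 3.19 in the wildtype libraries (log2 fold change 4.94, adjusted p = 0.0479). The kinase gene cdkl-1 had 389, 984 and 526 in the mutant libraries, against 98.6 and 22.3 in the wildtype libraries (log2 fold change 3.61, adjusted p = 0.0417). jbts-14 had close wildtype values, with 155, 327 and 287 in the mutant libraries against 48.8 and 55.2 in the wildtype libraries, and its log2 fold change of 2.21 (SE 0.56, adjusted p = 0.0494) was 2.30 without wildtype replicate 2 and, with the sign turned, -0.81 under pan-neuronal scaling. The membrane protein genes tmem-138, tmem-17 and tmem-218 also rose, by 4.68, 4.44 and 3.77 on the log2 scale (adjusted p from 0.0431 to 0.0484).

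Those that did not pass included other partners of the MKS module. tctn-1, the worm tectonic gene, had 136, 734 and 829.5 in mutant replicates 1 to 3, against 87.2 and 2.12 in wildtype replicates 1 and 2 (adjusted p = 0.0750). The log2 fold changes of mks-6, tmem-231 and tmem-107, which also encode proteins of the MKS module, were 3.59, 4.19 and 3.63 (adjusted p = 0.129, 0.0758 and 0.0718). The inversin gene nphp-2, the small GTPase gene arl-13 and the transition fibre gene dyf-19 had log2 fold changes of 4.36, 4.82 and 4.43 (adjusted p = 0.110, 0.0619 and 0.0683). hyls-1, whose product acts at the centriole in forming the cilium, was the exception, with 356, 286 and 556 in the mutant libraries against 376 and 339 in the wildtype libraries (log2 fold change 0.10, SE 0.46, adjusted p = 0.888). Its groups overlapped, and it was well above the 7 genes in wildtype replicate 2. Of the reads on the 7 genes and the 14 further ones left without hyls-1, a split chosen after its values were seen, the 7 took 52.4%, 51.2% and 54.03% in the mutant libraries against 43.9% and 20% in the wildtype libraries. The 7 calls among the 15 genes were all lost without wildtype replicate 2 or without any 1 mutant library, and under pan-neuronal scaling none of the 15 was called higher and hyls-1 was called lower (limma, log2 fold change -2.93, adjusted p = 0.0224).

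**Figure D4:**
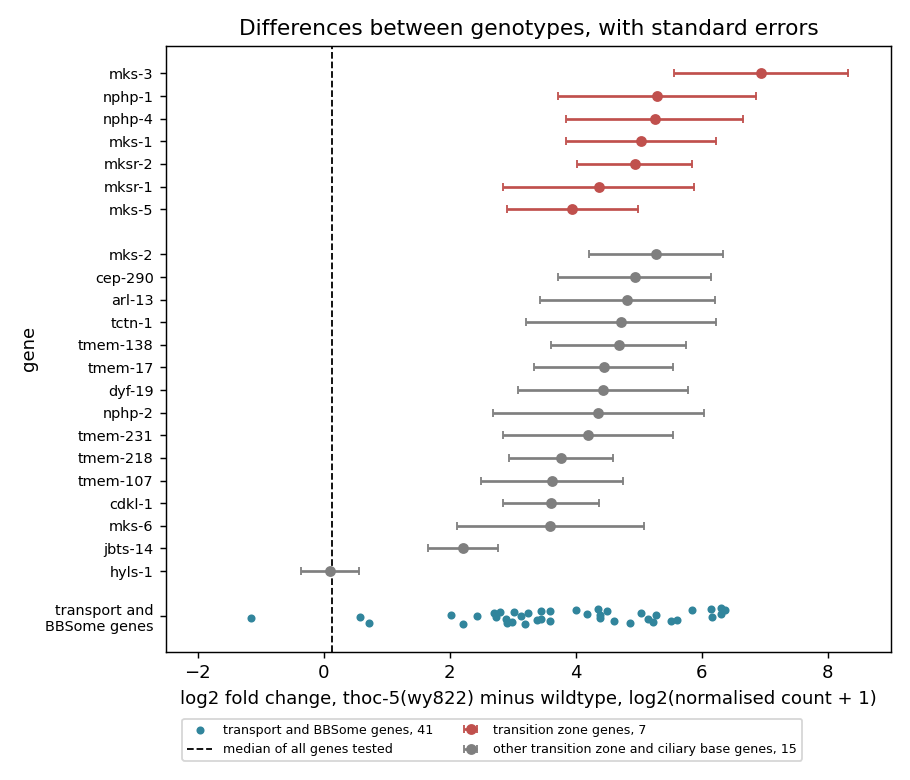
Log2 fold change, mutant minus wildtype on log2(normalised count + 1), of the 7 transition zone genes (red), 15 further transition zone and ciliary base genes (grey) and 41 transport and BBSome genes (teal); bars are standard errors and the dashed line is the median of all genes tested, 0.13. The 7 genes lie between 3.95 and 6.95, and hyls-1 lies at 0.10.

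Of 41 genes tested on the transport and BBSome list, 27 rose and none fell (limma, adjusted p below 0.05). Of all genes tested, 6.97% rose and 5.92% fell. The 41 include che-10, che-12 and dyf-7, which lie outside the transport particles. Of these, che-12 was among the 27 (limma, log2 fold change 2.91, adjusted p = 0.0410). The median log2 fold change of the 41 was 3.60. Under pan-neuronal scaling the median was 0.87, with 29 of the 41 above 0, and dyf-7 was called lower (limma, log2 fold change -4.16, adjusted p = 0.0225). The 4 with the smallest p were ifta-2, osm-5, bbs-2 and che-11, at log2 fold changes of 3.24, 4.61, 4.0 and 4.86 (adjusted p = 0.0382 each). These calls too were all lost without wildtype replicate 2, where the median was 2.73, beside 2.94 for the 7 transition zone genes. daf-19 itself had normalised counts of 1021, 1873 and 2795 in mutant replicates 1 to 3, against 503 and 68.0 in wildtype replicates 1 and 2. Its log2 fold change of 3.23 (SE 0.89) did not pass (limma, adjusted p = 0.0577).

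The pattern over libraries was compared with the centred log2 levels of 8995 genes whose mean normalised count was at least 50. The 10 genes other than members closest to the mean profile of the 7, by root mean square difference over the 5 libraries, were str-260 (0.0864), srh-217, Y102A11A.9, ZK1320.5, lurp-4, str-155, npr-6, srx-117, Y38H6C.14 and C03H5.7 (0.257). str-260, srh-217, str-155 and srx-117 belong to chemoreceptor families and npr-6 to the neuropeptide receptors. None of the 10 was on the ciliary lists used here. mks-1 itself lay at 0.197 and ranked 5th, whereas mks-3 and mksr-2 lay at 1.02 and 1.58, the farthest of the 7 from their common profile.

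The libraries do not mark strand, so reads of overlapping genes cannot be told apart. In the WBcel235 annotation mks-3 shares 154 exon bases with F35D2.6 on the opposite strand, which had 0.783, 151 and 0 normalised counts in mutant replicates 1 to 3 against 4.36 and 0 in wildtype replicates 1 and 2. F35D2.6 was thus high in mutant replicate 2, where mks-3 was highest. nphp-4 shares 23 exon bases with the collagen gene col-158, which had 49.3, 78.1 and 18.5 in the mutant libraries against 590.4 and 60.6 in the wildtype libraries. The acid phosphatase gene pho-8, R13H4.2 and R13H4.8 also overlap nphp-4 on the opposite strand, with no shared exon base. pho-8 had 268, 2095 and 690.1 in the mutant libraries against 423 and 22.3 in the wildtype libraries, and R13H4.2 had 288, 202 and 221 against 7184 and 11831. R13H4.8 had 20.4, 171 and 9.75 in the mutant libraries against 28.8 and 12.7 in the wildtype libraries. mks-1 and mks-5 overlap annotated genes without shared exon bases, and mksr-1, mksr-2 and nphp-1 overlap none.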

How the data were processed

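The authors deposited 1 table of 42048 genes. Per the submitters' processing notes, Trim Galore, STAR 2.4.2a, DESeq2 and genome build ce10 were used. The sources used here name no read counter. The library values as deposited are a never-negative signal, gene counts divided by 1 size factor per library, as is the deposited mean. Per the file headers, further columns give a log2 fold change, its standard error, a test score, a p-value and an adjusted p-value. Divided by the step of 1 read in their library, 100% of values came out whole within 1e-04 reads, so counts were recovered from the deposited signal; on them edgeR 4.0.16 called 0 genes (3869 at an unadjusted p below 0.05) and DESeq2 1.42.0 called 2123 higher and 1595 lower.

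The test was limma 3.58.1 in R 4.3.3 with a mean-variance trend, applied to log2(normalised count + 1) of genes that reached 10 in 2 or more libraries, two-sided, with Benjamini-Hochberg adjustment over 13787 genes. Replicates are separate samples by their labels, which do not say that cultures were separate, so the spread behind each p-value is that between these samples alone and may be technical. With 3 against 2 libraries, the smallest p of an exact permutation test is 0.1. Intervals are Clopper-Pearson.

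The genes and lists were chosen with earlier results of these data known. Named genes are the 7 members, the further transition zone list, daf-19, thoc-5 and the 4 transport genes with the smallest p. Also named are the 10 most similar profiles, genes overlapping a member and leading markers. The genes dyf-7, che-10, che-12, daf-10, osm-1, the epidermal genes, markers at 0 and neighbours in the closing section were named after their values were seen. Positions and exon lengths come from the Ensembl annotation of WBcel235, matched by name; no position in ce10 is given. Sequences were not used here, so a planned search for promoter motifs was not run. Alternatives were pseudocounts of 0.5 and 8, testing without a filter or with one of 50, scaling by upper quartile or pan-neuronal genes, a replicate block, edgeR, DESeq2, the authors' deposited values and leaving out each library, where a lone wildtype library is assumed to vary like the mutant ones.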

Additional observations from a re-analysis of the deposited data

How the results depend on the processing

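The 7 transition zone genes were higher in the mutant under every alternative run. Leaving out single libraries, their median log2 fold change ranged from 2.94 without wildtype replicate 2 to 7.001 without wildtype replicate 1, and it was lowest, 2.41, under pan-neuronal scaling, where the median of all genes was -2.81. Of 105 single-gene values, 19 moved by more than the spread between replicates and none changed sign. These values are not all separate checks. A change of filter cannot alter a gene's fold change, and the replicate block repeated the values without mutant replicate 3. The spread was wide: mksr-1, at 4.37 in the main test and 2.37 in the authors' deposited table, was not counted as moved. The genes were chosen with this contrast known, so nothing is read from these counts or from the shared sign. Leaving out each library in turn gave 0 to 2167 genes called higher and 0 to 480 called lower (limma; 3415 or more at an unadjusted p below 0.05 in each), 0 to 11 of the 15 further transition zone genes and 0 to 32 of the transport and BBSome genes; all calls were lost without wildtype replicate 2 or any 1 mutant library. edgeR (3869 at an unadjusted p below 0.05) and the replicate block in limma (3951) each called 0 genes in either direction and 0 in both lists. In the block, mutant replicate 3 has no wildtype partner and adds nothing to the difference between genotypes. The median log2 fold change of the 7 genes was thus 4.66 both there and without mutant replicate 3. The replicate numbers are names in the labels. Deviations of same-numbered libraries correlated at 0.0093 and 0.111 across genes. With only 2 wildtype libraries these deviations mirror each other, as mutant replicate 2 correlated at -0.111 with wildtype replicate 1. This check therefore cannot decide whether same-numbered samples were paired. A pseudocount of 8 gave 1737 higher, 1480 lower and 11 of the 15 genes, DESeq2 2123, 1595 and 11, and the values the authors deposited gave 2063, 1654 and 11. No filter gave 533 higher and 3 of the 15, and a pseudocount of 0.5 gave 3 of the 15. Pan-neuronal scaling gave 204 higher, 6453 lower, 0 of the 15 and 6 transport and BBSome genes. The cause of these differences was not tested. The 7 genes had 25 reads in wildtype replicate 2, a library of 10.2 M reads, so shares within them are imprecise there.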

Other observations

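Of the 14 protein-coding genes nearest to the 7 transition zone genes, 97 to 4153 bases away in WBcel235, 11 were tested, 2 rose and 1 fell (limma, adjusted p below 0.05), where 6.97% of all genes tested rose and 5.92% fell. Those that rose were unc-1, a stomatin-like gene beside mksr-1 (log2 fold change 3.11, adjusted p = 0.0417), and the globin gene glb-12 beside mks-5 (3.32, adjusted p = 0.0440). The proton pump gene vha-11 beside mksr-2 fell by 1.71 on the log2 scale (adjusted p = 0.0488). lact-3 lies 97 bases from nphp-1 on the same strand and had normalised counts of 248, 445 and 541 in mutant replicates 1 to 3, against 219.8 and 266 in wildtype replicates 1 and 2 (log2 fold change 0.69, adjusted p = 0.345). Its groups overlapped, whereas those of nphp-1 did not. C09G5.13, 606 bases from mks-5 on the same strand, had 409.7, 388 and 766 in the mutant libraries, against 115 and 10.6 in the wildtype libraries (log2 fold change 3.76, adjusted p = 0.0529). In that pair both genes were higher in every mutant library. In the pair of nphp-1 and lact-3 wildtype replicate 2 held 2 reads of nphp-1 and a lact-3 level above that of mutant replicate 1.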
